A study of Sus scrofa with 3 samples.

Results

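The genes described here are the BCL2 family members BCL2, BCL2L1, MCL1, BAX, BAK1 and BID and the initiator caspases CASP2, CASP8 and CASP9, whose hepatic expression was measured by RNA-Seq in miniature pigs fed much fat and cholesterol (HFC diet). A gene was taken when its symbol was listed in the expression tables, which held 8 of the 9 genes among 34579 features. BAK1 was not listed under that symbol. The tables hold an mRNA entry BAK, which is an older name of BAK1, and its values are given separately. The livers came from male Chinese Wuzhishan pigs that were 6 to 7 months old when they were obtained, before an acclimation period and the diet. IM pigs were intact and sham-operated, CM pigs were castrated, and CMT pigs were castrated and injected each week with testosterone propionate at 10 mg/kg. All 3 groups received the HFC diet, which held lard, egg yolk powder, cholesterol and sodium cholate, for 12 weeks, so that no group on a normal diet was compared. Each group was sequenced as 1 library from RNA of 3 pigs pooled in equal amounts, while the study held 6 pigs per group.

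Apoptosis through mitochondria is set by the balance within the BCL2 family. BCL2, BCL2L1 (BCL-XL) and MCL1 keep cells alive by holding the pore-forming effectors BAX and BAK in check, and BH3-only proteins such as BID shift that balance towards pore formation. Once cytochrome c leaves the mitochondria, it assembles with APAF1 and activates CASP9, whereas CASP8 is activated at death receptors and cleaves BID, and CASP2 responds to DNA damage and other stress. Hepatocytes depend on BCL2L1 and MCL1 for survival, and BID links death receptors to mitochondria in these cells.

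The recovered reads, that is the whole numbers of reads that the deposited values imply, summed to 32197441 in IM, against 36126345 in CM and 25419733 in CMT. Levels are given in FPKM, which is per transcript length, on the deposited scale, where a transcript of 1 kb had 2.51 reads per FPKM in IM, 3.42 in CM and 2.04 in CMT. These divisors were not proportional to the recovered reads. They were also many times smaller than the definition of FPKM gives for these sums of reads. The deposited values are therefore many times larger than FPKM by definition, and levels and FPKM minimums here are in the deposited unit only. Ratios within a library do not depend on that unit. On a scale of recovered reads, where each level is divided by its library's sum of them, every log2 ratio of CM to IM is higher by 0.28, every log2 ratio of CMT to CM is lower by 0.24, and the median over all genes tested moves to 0.26 and -0.23. On the deposited scale these medians were -0.020 and 0.013. With 1 library per group, no difference had a replicate check and no test between groups was possible. Ratios carry 95% intervals, exact binomial on recovered reads, which cover counting error only.

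Castration was first compared with the intact state. All 8 genes had a higher FPKM in CM than in IM, with a median log2 ratio of 0.46, against -0.02 over all features tested. BAX, BCL2, BCL2L1 and CASP2, 4 of the 8, were at least 1.5-fold higher. Among 15613 mRNA features that reached an FPKM of 1 in each library, 11.1% were at least 1.5-fold higher in CM and 12.1% were at least 1.5-fold lower. The higher genes held a pore-forming effector, a pair of survival proteins and a stress caspase, so that promoters and inhibitors of apoptosis were higher in the same library. BAX and BCL2 also passed 2-fold, as did 4.61% of all features tested in that direction, while 4.77% were 2-fold lower and 9.38% passed in either direction. The counting interval lay above 1 for 5 of the 8 genes, against 22.2% of the features with recovered reads, and below 1 for none of the 8, against 26.8%. On the scale of recovered reads, 4 of the 8 genes were again 1.5-fold higher in CM, against 22.0% of all features tested, and 3 were 1.5-fold lower in CMT than in CM, against 22.4%.

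**Figure D1:**
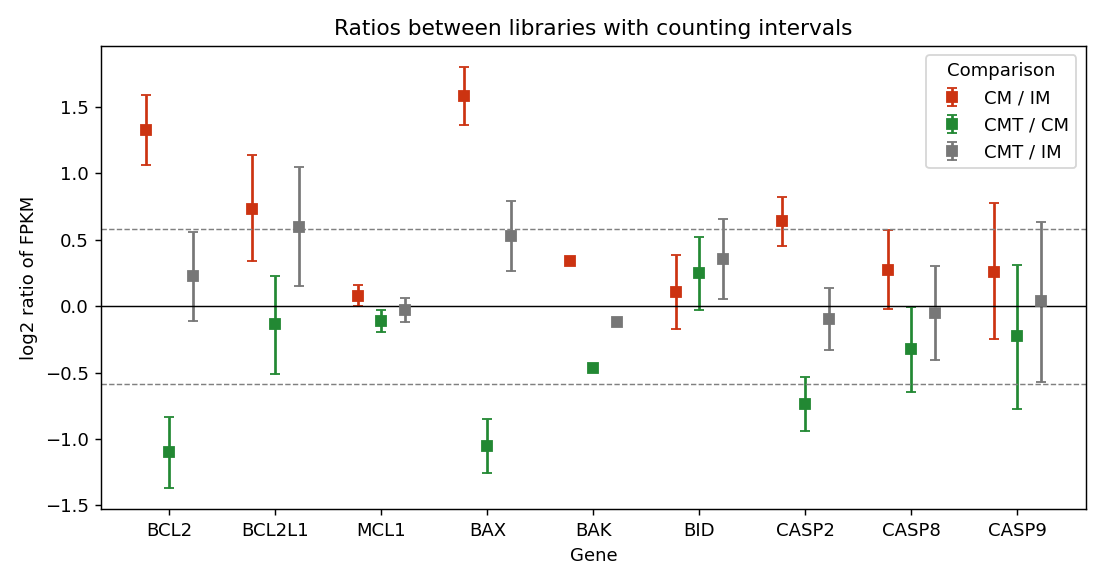
log2 ratios of FPKM (y axis) for each gene (x axis) in CM versus IM (red), CMT versus CM (green) and CMT versus IM (grey), with 95% counting intervals as bars and dashed lines at 1.5-fold. BCL2, BAX and CASP2 lie past the upper line in CM versus IM and past the lower line in CMT versus CM, BCL2L1 passes the line in CM versus IM and CMT versus IM, and the entry BAK has no interval.

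Testosterone replacement was then compared with castration alone. Of the 8 genes, 7 had a lower FPKM in CMT than in CM and BID was higher. Their median log2 ratio was -0.27, against 0.013 over all features tested. BCL2, BAX and CASP2 were at least 1.5-fold lower in CMT, against 13.5% of all features tested, and no gene was 1.5-fold higher, against 12.1%. BCL2 and BAX were also 2-fold lower, as were 6.37% of all features tested, while 4.8% were 2-fold higher and 11.2% passed in either direction. The counting interval lay below 1 for 5 genes and above 1 for none, against 21.6% and 27.3% of the features with recovered reads. BCL2, BAX and CASP2 were therefore at least 1.5-fold higher in CM than in both other libraries, which held for 6.87% of all features tested, and none was 1.5-fold below both, against 7.12%. CM held the highest FPKM of the 3 libraries for 7 of the 8 genes and for 35.2% of all features tested, CMT for BID and 33.2% of features, and IM for no gene and 31.6% of features. Both comparisons share the CM library and are not independent of each other. The paper had already reported BCL2, CASP2 and BAX as higher in CM pigs, from these same libraries. The counts of these genes beside the shares of all features are therefore descriptions and not tests of enrichment.

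CMT and IM were the pair with the fewest of these genes past 1.5-fold, and also with the fewest of all features tested. In either direction, 16.8% of features passed between CMT and IM, while 23.2% did between CM and IM and 25.7% between CMT and CM. Among the 8 genes, only BCL2L1 (12.5%) reached 1.5-fold between CMT and IM. It was higher in CMT, against 6.67% of all features tested. No gene was 1.5-fold lower, against 10.1%. No gene passed 2-fold, against 2.16% of features higher, 3.98% lower and 6.14% in either direction. The median log2 ratio of CMT to IM over the 8 genes was 0.13, against -0.007 over all features tested, with 5 genes higher and 3 lower in CMT. The counting interval lay above 1 for BCL2L1, BAX and BID, against 19.6% of features, and below 1 for none, against 17.5%. MCL1, CASP2 and CASP8 were lower in CMT than in IM by less than their counting error, and the sign of the MCL1 ratio turned on the scale of recovered reads.

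Among the survival genes, BCL2 was the least abundant and differed most. Its FPKM was 9.23 (IM), 23.1 (CM) and 10.8 (CMT), from 158, 539 and 150 recovered reads. The CM library stood alone, since the ratio of CM to IM was 2.5 (2.09 to 3.01) and that of CMT to CM was 0.467 (0.387 to 0.560), whereas CMT and IM lay within counting error at a ratio of 1.17 (0.928 to 1.47). The CM to IM ratio of BCL2 was exceeded by 398 of the features tested.

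BCL2L1, the gene of BCL-XL, had a different course. Its FPKM in the IM, CM and CMT libraries was 102, 170 and 155, so both libraries of castrated pigs were above the intact one. The ratio was 1.67 (1.27 to 2.20) for CM to IM and 1.51 (1.11 to 2.07) for CMT to IM, and CMT and CM could not be told apart by counting at 0.909 (0.702 to 1.17). The recovered length of 304 bases is short for this transcript, so a common factor of its 78, 177 and 96 reads may have been lost and its intervals may be too wide.

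MCL1, a short-lived survival protein, was the most abundant gene of the group in every library. Its FPKM was 472 in IM, against 499 in CM and 462 in CMT, from 2334, 3363 and 1859 reads. The ratios of 1.06 (1.0 to 1.12) for CM to IM and 0.927 (0.875 to 0.981) for CMT to CM were both within 1.5-fold. On the scale of recovered reads, the log2 ratio of CM to IM was 0.36 for MCL1 in place of 0.08. That scale adds the same 0.28 to every gene, and the median over all genes tested was then 0.26.

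**Figure D2:**
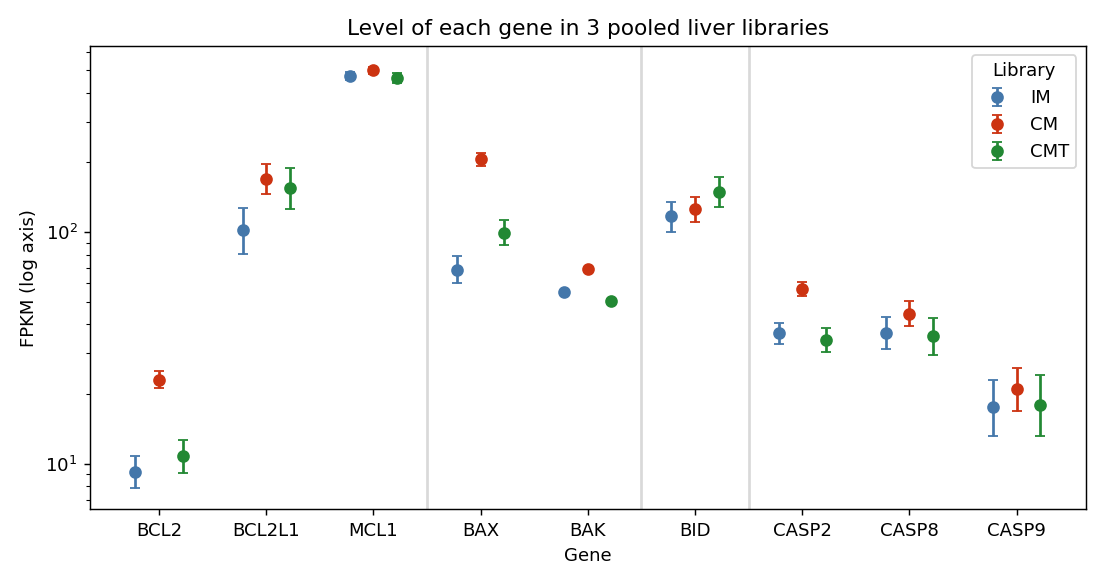
FPKM on a log axis for each gene (x axis, inhibitors, effectors, BID and caspases from left to right) in the IM, CM and CMT libraries, with 95% Poisson counting intervals as bars where reads were recovered. CM is the highest point for every gene but BID, and MCL1 lies between 462 and 499 in all 3 libraries.

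The effector BAX showed the largest ratio of the group. Its FPKM was 68.9 (IM), 206 (CM) and 99.3 (CMT), from 220, 898 and 258 reads. CM was 3.0-fold (2.58 to 3.49) above IM, a ratio exceeded by 254 of the 15613 features tested, and CMT to CM was 0.482 (0.418 to 0.554). CMT remained between the other libraries, 1.44-fold (1.20 to 1.74) above IM. In rank among the mRNA features of each library, BAX moved from 6549 in IM to 2927 in CM and 5270 in CMT.

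The entry BAK, the other pore-forming effector, differed less than BAX. It was at 54.9 (IM), 69.5 (CM) and 50.5 (CMT), with ratios of 1.27 for CM to IM and 0.726 for CMT to CM. No single transcript length made its 3 values whole, so its reads were not recovered and no counting interval can be given.

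BID, which CASP8 cleaves to engage BAX and BAK, was the only gene with its highest level in CMT. Its FPKM was 117 in IM, against 126 in CM and 149 in CMT, from 180, 264 and 187 reads. The CM to IM ratio of 1.08 (0.887 to 1.31) and the CMT to CM ratio of 1.19 (0.979 to 1.44) were within counting error, and CMT was 1.28-fold (1.04 to 1.58) above IM.

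Of the initiator caspases described here, CASP2 differed between the libraries, and CASP8 and CASP9 did so by less than 1.5-fold. CASP2, a caspase activated by genotoxic stress, had an FPKM of 36.5 (IM), 56.9 (CM) and 34.2 (CMT), from 360, 764 and 274 reads. The CM library was 1.56-fold (1.37 to 1.77) above IM, the CMT to CM ratio was 0.601 (0.522 to 0.691), and CMT and IM lay within counting error at 0.936 (0.797 to 1.10).

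CASP8, the caspase of the death receptors, was at 36.8 (IM), 44.5 (CM) and 35.5 (CMT). CASP9, the caspase of the apoptosome, was at 17.6 in IM, against 21.0 in CM and 18.0 in CMT. Both were highest in CM, with CM to IM ratios of 1.21 (0.987 to 1.49) for CASP8 and 1.20 (0.843 to 1.71) for CASP9, and both intervals held 1. CASP9 rested on only 54, 88 and 45 reads, so a difference of the size measured was not detectable at this depth. For CASP8 the CMT to CM ratio was 0.799 (0.638 to 0.996).

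In IM, the order of levels was MCL1, BID, BCL2L1, BAX, CASP8, CASP2, CASP9 and BCL2. The counting intervals of BID and BCL2L1 overlapped, as did those of CASP8 and CASP2. In CM, BAX moved to the second place after MCL1, where its interval of 193 to 220 overlapped that of BCL2L1 at 146 to 197, and BCL2 moved level with CASP9. In CMT, BAX was again below BCL2L1 and BID, whose intervals overlapped, and BCL2 was last. These orders are per length and depend on the transcript length that the authors used for each gene.

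The balance of effectors and inhibitors was described within each library, where the scaling between libraries has no part. The summed FPKM of BAX and BAK was 124 (IM), 276 (CM) and 150 (CMT), and that of BCL2, BCL2L1 and MCL1 was 583 (IM), 692 (CM) and 628 (CMT). The ratio of effectors to inhibitors was thus 0.212 in IM, against 0.398 in CM and 0.239 in CMT. CM was 1.88-fold above IM and CMT 0.599 times CM. Of the inhibitor sum, MCL1 held 80.9% (IM), 72.1% (CM) and 73.6% (CMT), so its near-constant level set most of the denominator. Without MCL1 the ratio was 1.11 (IM), 1.43 (CM) and 0.905 (CMT). CM was still highest but 1.28-fold above IM (0.993 to 1.66, with BAK taken as free of counting error). On the same terms, CMT to IM was within counting error, at 1.12 (0.983 to 1.29) with MCL1 and 0.815 (0.605 to 1.10) without it. With geometric means in place of sums, which weight BCL2 as much as MCL1, CM was 1.19-fold above IM.

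**Figure D3:**
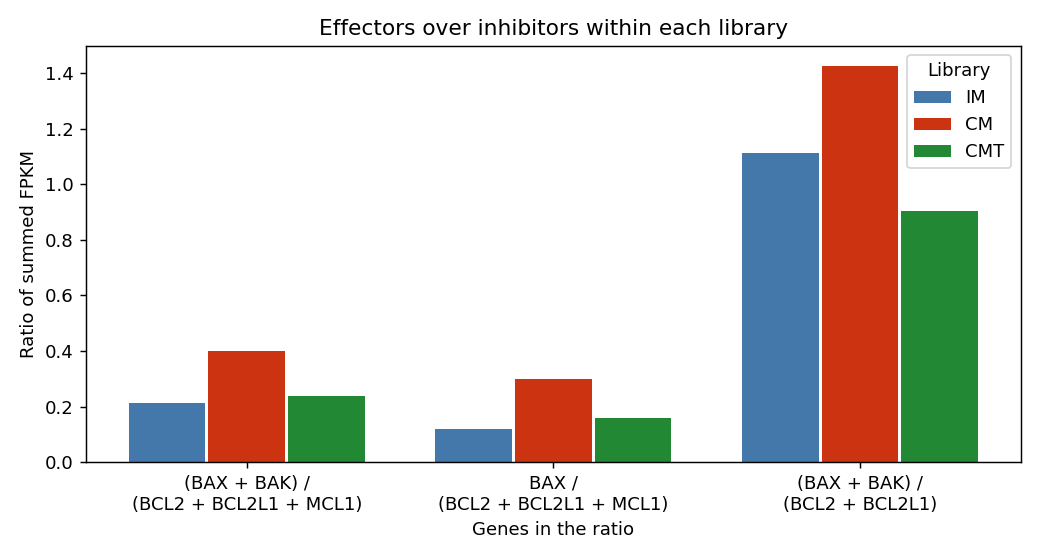
Ratio of summed FPKM of effectors to inhibitors (y axis, from 0) in IM, CM and CMT for 3 choices of genes (x axis). CM is the highest bar for each choice, at 0.398 for the main one. CMT is above IM with MCL1 in the denominator and below it without, but within counting error of IM for the choices that hold BAK.

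The ratio of BAX to single inhibitors differed by partner. BAX to BCL2 was 7.46 (IM), 8.93 (CM) and 9.22 (CMT), and the change from IM to CM of 1.20-fold (0.95 to 1.51) was within counting error. BAX to BCL2L1 was 0.674 in IM, against 1.21 in CM and 0.642 in CMT. The change from IM to CM was 1.80-fold (1.33 to 2.44). Among these 3 libraries BAX was above BCL2L1 in CM only, where their counting intervals overlapped, and this order is per length. BAX to MCL1 was 0.146 (IM), 0.413 (CM) and 0.215 (CMT), a change from IM to CM of 2.83-fold (2.42 to 3.31). BAX thus differed between CM and IM by more than BCL2L1 or MCL1 beyond counting error, and not so for BCL2.

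Other genes of the pathway were taken from a list of 65 genes written by role, of which 57 were matched in the tables and 55 reached an FPKM of 1 in each library. BCL2L10 and CASP14 were listed at 0 in every library. Among the genes not matched were BMF, CASP12, VDAC3, BIRC5, BIRC7, TNFRSF10A and CFLAR. For CM versus IM, 5 of the 55 genes were at least 1.5-fold higher and 5 lower, or 18.2% against 23.2% of all features tested. For CMT versus CM, 6 were higher and 4 lower, or 18.2% against 25.7%. The medians of the log2 ratios were 0.01 and 0.06. In both comparisons the shares of this list were somewhat below those of all features. With 55 genes and 1 library per group, these differences were not tested. For CMT versus IM, 3 were higher and 2 lower, or 9.09% against 16.8%. On the scale of recovered reads, 10 were higher and 2 lower for CM versus IM, where 22.0% of all features tested were higher and 6.42% lower. That scale gave 4 higher and 7 lower genes in CMT against CM, where 6.82% of all features tested were higher and 22.4% lower.

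**Figure D4:**
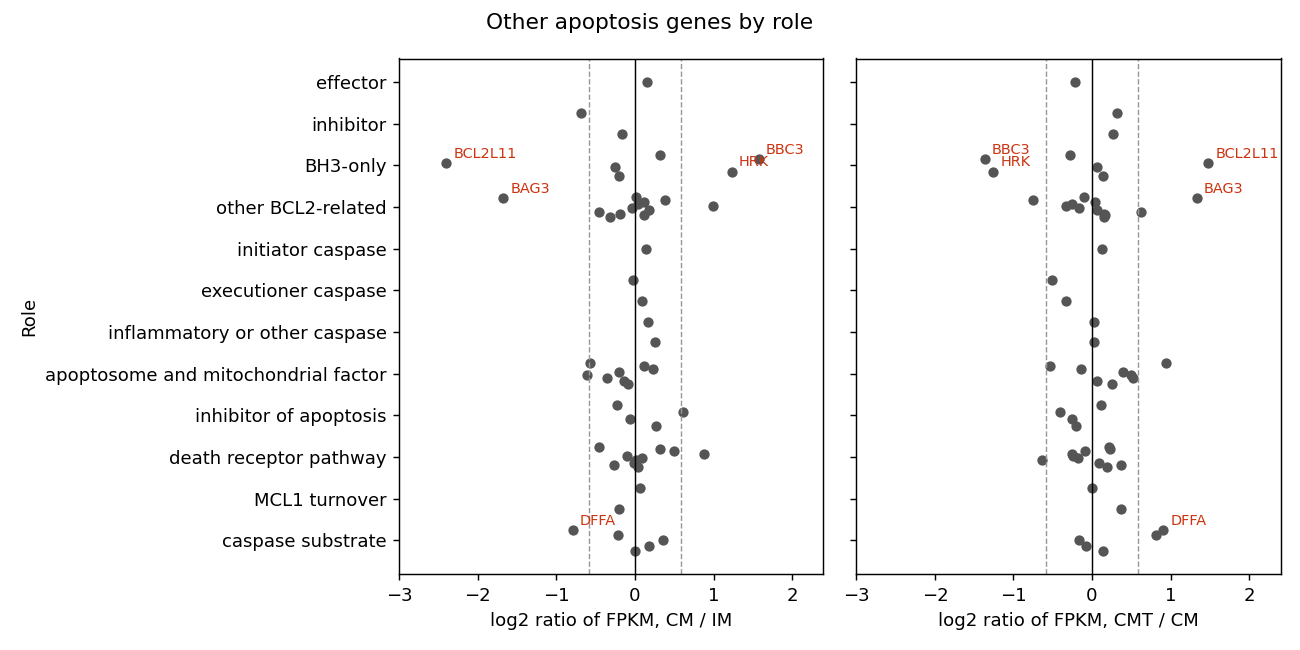
log2 ratios of FPKM (x axes) for the 55 other apoptosis genes by role (y axis), in CM versus IM on the left and CMT versus CM on the right, with dashed lines at 1.5-fold. Most points lie between the lines, and the 5 genes named in red pass them on opposite sides in the 2 panels.

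Past 1.5-fold in both comparisons, in opposite directions, were 5 of these genes, 2 of them higher and 3 lower in CM, or 3.64% and 5.45% of the 55 genes against 6.87% and 7.12% of all features tested. BBC3, the BH3-only protein PUMA, had an FPKM of 14.4 (IM), 42.9 (CM) and 16.7 (CMT). Its CM to IM ratio of 2.98 (1.73 to 5.40) was close to that of BAX, though from 17, 69 and 16 reads. HRK, another BH3-only gene, was at 2.73 in IM, against 6.41 in CM and 2.69 in CMT, but from 5, 16 and 4 reads, so that its intervals held 1.

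The opposite course was seen in BCL2L11, the BH3-only protein BIM. It was at 11.2 (IM), 2.11 (CM) and 5.91 (CMT), from 35, 9 and 15 reads, with a CM to IM ratio of 0.189 (0.0798 to 0.400). The BH3-only genes thus did not move together, since BBC3 and BCL2L11 lay on opposite sides and BAD, BIK and PMAIP1 stayed within 1.5-fold. BAG3, a co-chaperone that binds BCL2, was at 909 (IM), 284 (CM) and 716 (CMT), with a CM to IM ratio of 0.313 (0.299 to 0.328). DFFA, the inhibitor of the caspase-activated DNase, was at 281 in IM, against 162 in CM and 304.3 in CMT, with a CM to IM ratio of 0.576 (0.513 to 0.648).

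CASP6, APAF1 and CYCS were within 1.5-fold in every comparison. CASP6, a caspase that cleaves nuclear lamins, was at 276 (IM), 295 (CM) and 234 (CMT). Its CM to IM ratio of 1.07 (0.943 to 1.21) was within counting error, whereas CMT was below CM at 0.793 (0.689 to 0.912) and below IM at 0.847 (0.728 to 0.983). APAF1, the scaffold of the apoptosome, was at 9.67 in IM, against 10.5 in CM and 7.23 in CMT, and CYCS, cytochrome c, was at 335 (IM), 395 (CM) and 358 (CMT). Among the other survival genes, BCL2A1 was at 112 (IM), 69.5 (CM) and 86.8 (CMT), with ratios of 0.622 (0.476 to 0.813) for CM to IM, past 1.5-fold, and 1.25 (0.922 to 1.69) for CMT to CM, within counting error, and BCL2L2 (BCL-W) stayed within 1.5-fold.

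The liver also holds lymphocytes, which express BCL2, and in pooled tissue RNA a larger share of a cell type and more RNA per cell cannot be told apart. All 8 hepatocyte markers passed the FPKM minimum, and ALB and the others summed to 1151165 in IM, against 879583 in CM and 891752 in CMT. Of 9 T and NK cell markers, 8 were higher in CM than in IM, 1 of them by at least 1.5-fold, and 8 were lower in CMT than in CM, 7 of them by at least 1.5-fold. Their median log2 ratio was 0.45 for CM to IM and -1.03 for CMT to CM. CD247 was the exception in both. Their summed FPKM was 935 (IM), 953 (CM) and 881 (CMT). The general leukocyte markers PTPRC, CD53, CORO1A and LCP1 summed to 616 (IM), 789 (CM) and 639 (CMT), and the B cell markers to 38.5 in IM, against 48.2 in CM and 38.5 in CMT. Macrophage markers summed to 10196 (IM), 7641 (CM) and 9442 (CMT), endothelial markers to 767 (IM), 653 (CM) and 737 (CMT), stellate cell markers to 1274 in IM, against 1373 in CM and 1133 in CMT and cholangiocyte markers to 901 (IM), 888 (CM) and 1238 (CMT), with 3 of the 5 cholangiocyte markers at least 1.5-fold higher in CM than in IM. No matched marker was at 0 in all libraries. Most T and NK cell markers and the summed leukocyte, B cell and stellate cell markers were thus highest in CM, as BCL2, BAX and CASP2 were. Single markers were less uniform than these sums. The 4 B cell markers that passed the FPKM minimum all rose from IM to CM, but from CM to CMT 2 rose and 2 fell. Among 6 stellate cell markers, 4 rose and 2 fell from IM to CM, and 5 fell from CM to CMT. All 4 leukocyte markers rose from IM to CM, and 3 fell from CM to CMT. Of the 5 cholangiocyte markers, 4 were higher in CM than in IM. In CMT versus CM, 4 were lower, 2 of them by at least 1.5-fold, and 1 was at least 1.5-fold higher. The cholangiocyte median log2 ratio was 0.78 for CM to IM, -0.58 for CMT to CM and 0.30 for CMT to IM. In CMT versus IM, however, 5 T and NK cell markers were at least 1.5-fold lower and 0 higher, with a median log2 ratio of -0.59, whereas BCL2 and CASP2 lay within counting error and BAX was higher. The part of the markers in the differences of BCL2, BAX and CASP2 was not tested.

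The features with the pattern most like each of BCL2, BAX and CASP2 were sought over the 3 libraries among mRNA features that reached an FPKM of 10 in each. Likeness was the larger of the differences in log2 ratio between the gene and the feature, over CM versus IM and CMT versus CM. Nearest to BCL2 were NRM, PLP2 and ARMCX6, at differences of 0.029, 0.074 and 0.094. Nearest to BAX were IL22RA1, PBD-2 and TOR3A, at 0.029, 0.038 and 0.059, and nearest to CASP2 were MSR1, UBA7 and TM4SF4, at 0.010, 0.021 and 0.022. Within 0.25 of the gene lay 39 of 12127 features (0.322%) for BCL2, 16 of 12126 (0.132%) for BAX and 403 of 12126 (3.32%) for CASP2. Fewer features lie at larger ratios, so these counts do not compare the 3 patterns.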

How the data were processed

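Total liver RNA of 3 pigs per group was pooled, and poly-A libraries were sequenced as paired-end reads of about 100 bp. Per the labels and the study's methods, the authors checked reads with FastQC, mapped them to Sscrofa 10.2 with TopHat and deposited 1 FPKM value per feature and library. The counting program and annotation are not given in the sources used here. The authors' DEGSeq test was not rerun.

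The deposited FPKM values were divided as they stood, with no pseudocount. A gene counted as different at 1.5-fold where each library had an FPKM of 1 or more on the deposited scale. That is a lower bar than an FPKM of 1 by definition. Within a gene the values are multiples of a step, which gave the library divisors, and the smallest length up to 10000 bases that made all 3 values whole, to within 0.0005 reads or a billionth of the reads, gave the reads of 23098 features, 95.1% of the 24277 above 0. Of 13 mitochondrial genes, 9 recovered lengths were within 2 bases of the annotated length, 2 were 0.5 times and 2 were 3 times it. In a test on simulated whole reads, with these divisors taken as known, 92.3% of 2980 genes were exact, so the divisors themselves were not tested. Where a recovered length is too long, its reads are overstated and its intervals too narrow. Between 1083 and 1154 features had 2 reads in a library and between 1136 and 1316 had 1. Where both mates were counted, intervals are too narrow.

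Genes, gene lists and criteria were chosen with earlier results of these data known. Named are the 9 genes, CASP6, APAF1 and CYCS, and each listed gene past 1.5-fold in both CM versus IM and CMT versus CM in opposite directions. Some genes that the rule names are not reported here. Other survival genes, the BH3-only genes and the marker genes were named to describe their lists. BNIP3, HTRA2 and CRADD were matched through RefSeq gene IDs of Sscrofa11.1. BAK had no match in the RefSeq table and was taken as BAK1 by its name. Alternatives were 2-fold, other FPKM minimums, a pseudocount of 1, 3 scalings, counting intervals and other choices of genes. No coordinates are given, since the table's build differs from the authors'. No sequence was used here. The software was Python 3.11.15, numpy 2.4.6, pandas 2.3.3, scipy 1.17.1 and matplotlib 3.10.9.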

Additional observations from a re-analysis of the deposited data

How the results depend on the processing

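No log2 ratio of a gene changed its sign where it was past 1.5-fold. At 2-fold, 2 genes of the 8 differed in CM versus IM and 0 in CMT versus IM, and of the other apoptosis genes 4 differed in CM versus IM, 4 in CMT versus CM and 0 in CMT versus IM. With upper quartile scaling, 0 of the 8 genes differed in CMT versus IM, where the ratio of BCL2L1, 1.51, is near the threshold. With intervals from 0.5 times the reads (chosen after seeing the data) 0 did as well, since the interval of BCL2L1 then held 1. An FPKM of at least 10, which BCL2 missed in IM, left 3 of the 8 genes in CM versus IM and 2 in CMT versus CM, and 6 other genes in CM versus IM and 1 in CMT versus IM. For CMT versus IM, a pseudocount of 1 left 3 of them and the counting interval 1. The log2 change of the effector to inhibitor ratio from IM to CM, 0.91, was 0.36 without MCL1, 0.56 with BOK, BCL2A1, BCL2L2 and BCL2L10, 0.49 with BID, 0.25 with geometric means and 1.34 without BAK. From CM to CMT, -0.74, it was -0.51 with those genes added, -0.28 with BID, -0.31 with geometric means and -0.91 without BAK. From IM to CMT, 0.17, it was -0.30 without MCL1, -0.06 with geometric means and 0.42 without BAK. Leaving out BAK or BCL2L1 and all alternatives for the other apoptosis genes were chosen after seeing the data. No paired analysis was possible because each group had 1 library, and for the same reason no library could be left out.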
